A study of Mus musculus with 4 samples.

Results

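The natural killer (NK) cells of injured mouse kidneys were examined in 4 single-cell RNA sequencing libraries. NK cells were chosen by their own transcripts, and 160 of 40939 kept barcodes met the rule. A barcode had to hold unique molecular identifiers (UMIs, each counting 1 captured transcript) of at least 3 of 6 NK genes, Ncr1, Klrb1c, Klrd1, Nkg7, Prf1 and Gzma, with Ncr1 or Klrb1c among them. It also had to lack any UMI of the T cell genes Cd3d, Cd3e, Cd3g, Cd4 and Cd8b1, of the macrophage receptor gene Csf1r, of the B cell gene Cd79a and of the endothelial gene Pecam1. All 4 mice were wild type, all belonged to a model of acute kidney injury caused by a contrast agent (CIAKI), and all carried the batch 1 label. Each mouse gave 1 droplet library of dissociated kidney. No uninjured mouse was analysed here, so the comparisons are between cell classes inside injured kidneys. Agent, dose, time of collection, age and strain are not given in the sources used here.

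NK cells are innate lymphocytes that kill infected or stressed cells without a rearranged antigen receptor. Their response is set by the balance of activating and inhibitory receptors, many of which read class I molecules on the target. They kill through granules that hold perforin and granzymes and through death ligands, and they release interferon gamma and chemokines. Tissues also hold type 1 innate lymphoid cells (ILC1), relatives that share Ncr1 and Klrb1c with NK cells but are known for Il7r, Cxcr6 and Cd200r1 and for little Eomes. In the kidney, NK cells have been studied as killers of tubular epithelium in acute injury.

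The libraries stood apart from each other in ways that touch every result. The matrices of mice 1 to 4 held 66762741, 64757026, 105436725 and 36831995 UMIs, and the median kept barcode of mouse 4 held 2077 UMIs, against 5549 to 5815 in mice 1 to 3. NK cells had a median of 6001 UMIs in mouse 3 and 1601 in mouse 4, and ribosomal protein transcripts took a median 6.21% and 17.6% of their UMIs in these mice. Mice 1, 2 and 3 shared 22 to 40 kept barcodes pairwise, mice 2 and 4 shared 1, and mouse 4 shared 0 with mice 1 and 3. Of the shared barcodes, 1 was an NK cell in mouse 3, and none was one in both libraries. Scrublet, a doublet caller, marked 0.0282%, 0.0232% and 0.0248% of cells in mice 1, 3 and 4, too few to be a working call, so doublets were left in and a score-based alternative was run. That alternative removed 1332 of 12904 kept barcodes of mouse 3, among them 20 of its 87 NK cells. In mouse 4 it removed 1170 of 12092, among them 6 of 72 NK cells.

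NK cells were found almost wholly in mice 3 and 4. Mouse 1 held 1 NK cell of 7085 kept barcodes, mouse 2 held 0 of 8858, mouse 3 held 87 of 12904 and mouse 4 held 72 of 12092. The share was 0.674% in mouse 3 (exact 95% binomial interval 0.540 to 0.831%) and 0.595% in mouse 4 (0.466 to 0.749%). It was 0.0141% in mouse 1, and the count of 0 in mouse 2 has an exact upper limit of 0.0416%. The mean was 0.321% ± 0.364 (SD, n = 4), so the spread between mice exceeded the mean. Binomial and Poisson intervals here and below cover counting error only. Against the CD8 T cells of the same libraries, NK cells numbered 1.37, 0, 74.4 and 12.5 per 100 in mice 1 to 4. CD8 T cells themselves numbered 73, 98, 117 and 577, T cells with NK receptors 3, 6, 14 and 55, and B cells 9, 16, 232 and 158 in mice 1 to 4. B cells and T cells with NK receptors were thus also fewest in mice 1 and 2. Limited to NK cells with Cxcr6 and Il7r at 0, an alternative chosen after the data were seen, the share was 0.581% in mouse 3 (75 cells) and 0.174% in mouse 4 (21 cells).

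**Figure D1:**
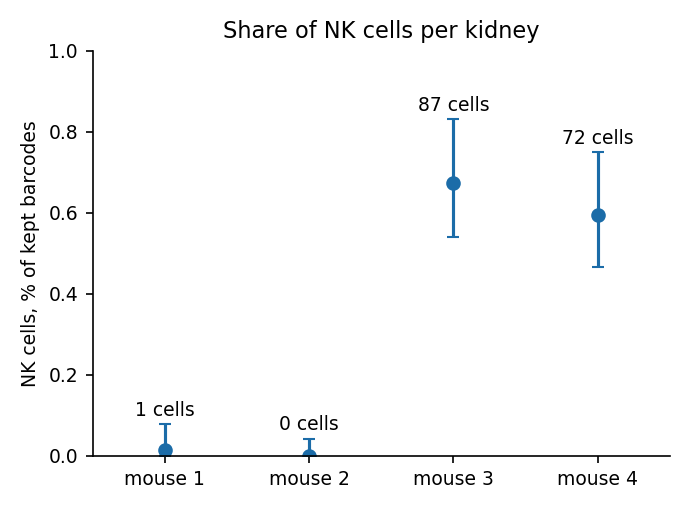
Share of NK cells among kept barcodes in each of the 4 CIAKI kidneys, in percent; points are single mice and bars are exact 95% binomial intervals, which cover counting error only. Mice 3 and 4 lie at 0.674% and 0.595%, and mice 1 and 2 at 0.0141% and 0.

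Most barcodes that met the NK gene criterion in mice 1 and 2 carried CD3. The criterion on the 6 NK genes was met by 36, 31, 189 and 177 kept barcodes in mice 1 to 4, and 6, 4, 148 and 86 of these lacked the 3 CD3 genes. Of the barcodes without CD3, 3, 3, 53 and 12 were left out for a UMI of Pecam1, and 3, 0, 11 and 0 for one of Csf1r, with overlaps. Close to the threshold on the inside, 0, 0, 5 and 36 members of mice 1 to 4 held exactly 3 NK genes. Close to it on the outside, 0, 2, 1 and 31 barcodes met every other criterion with exactly 2. The members of mouse 4 thus sat nearer to the threshold than those of mouse 3, where 37 members held 5 and 29 held all 6 NK genes. In mouse 4 Tyrobp, a signalling adaptor that the rule did not use, had 995 counts per 1000000 UMIs (CPM) in members with 3 NK genes and 557 CPM in the barcodes with 2. Barcodes of mouse 4 with 1 NK gene had 595 CPM. Mouse 3 did not show this order, with 68.9 CPM in its 5 members with 3 NK genes. There the 1 barcode with 2 had 0 CPM and the 10 barcodes with 1 had 296 CPM.

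The genes that chose the cells are given as a description. Ncr1, the activating receptor NKp46, had a UMI in 75.9% of NK cells of mouse 3 and in 58.3% of those of mouse 4. Klrb1c, the receptor NK1.1, had one in 90.8% and 77.8% of them. Gzma, a granule protease, had one in 97.7% of NK cells of mouse 3 but in 31.9% of those of mouse 4, and Prf1, which forms the pore of the killing granule, in 95.4% and 23.6%. Klrd1 (CD94), the partner chain of the NKG2 receptors, ran the other way with 47.1% in mouse 3 and 88.9% in mouse 4. In B cells, taken as the background class, Gzma had a UMI in 1.72% of cells of mouse 3 and 3.16% of those of mouse 4, at median depths of 6902 and 1837 UMIs.

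Eomes was common in the NK cells of mouse 3 and rare in those of mouse 4. Levels are UMIs of the gene per 1000000 UMIs of the class (CPM) with exact 95% Poisson intervals. Eomes, the transcription factor that sets conventional NK cells apart from ILC1, stood at 247 CPM (209 to 290.2) in mouse 3 and had a UMI in 58.6% of its NK cells. In mouse 4 Eomes stood at 23.0 CPM (4.75 to 67.3) with a UMI in 4.17% of NK cells. B cells had Eomes UMIs in 0.431% of cells of mouse 3 and 0% of those of mouse 4. After thinning every cell to 1000 UMIs, Eomes was seen in 17.4% of NK cells in mouse 3 and 0% in mouse 4, so the difference between these mice was present at equal depth. Tbx21 (T-bet), needed by both NK cells and ILC1, stood at 312 CPM in mouse 3 and 199.6 CPM in mouse 4. Genes of ILC2 and ILC3 were nearly absent. Il13, Il5 and Il22 had 0 UMIs in the NK cells of both mice, and Il1rl1 and Il23r had 1 UMI each, in mouse 4. The label therefore fitted the cells of mouse 3, while the rule does not separate NK cells from ILC1 and the cells of mouse 4 held genes known from both, as described further on. The 1 cell of mouse 1, with 8974 UMIs, held 20 UMIs of Tyrobp, 10 of Klra3 and 7 of Klre1.

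Markers of other cell types were at levels close to those in CD8 T cells for macrophages and endothelium. Summed over 4 macrophage markers, NK cells had 451 CPM in mouse 3 and 207 CPM in mouse 4, against 382 and 132 CPM in CD8 T cells. Over 4 endothelial markers they had 38.4 and 30.7 CPM, against 35.5 and 34.3 CPM. Over 4 proximal tubule markers they had 402 and 15.4 CPM, against 191 and 49.7 CPM. In mouse 4 the macrophage marker Adgre1, the endothelial marker Kdr and the tubule markers Kap and Lrp2 were at 0 in NK cells. The part of these levels in the results was not tested. The B cell gene Ms4a1 had 0 UMIs in the NK cells of both mice. T cell receptor transcripts were present in part. Trbc1 had a UMI in 79.3% of NK cells of mouse 3 and 59.7% of those of mouse 4, against 0.431% and 1.27% of B cells. Transcripts of the unrearranged beta constant region are known in NK cells. Trac, the constant region of the alpha chain, stood at 31.7 and 30.7 CPM in the NK cells of mice 3 and 4, against 757 and 321 CPM in CD8 T cells. Requiring Trac, Trbc1, Trbc2 and Trdc also at 0 left 15 NK cells in mouse 3 and 13 in mouse 4.

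NK cells were then set against the CD8 T cells of the same kidneys, the other cytotoxic lymphocytes there. CD8 T cells were kept barcodes with UMIs of at least 2 CD3 genes and of Cd8b1 and none of Cd4, Csf1r, Cd79a and Pecam1. Only mice 3 and 4 had at least 10 cells of both classes, so counts were summed per class in these 2 mice. They were tested with edgeR's quasi-likelihood test, with the mouse as a block and Benjamini-Hochberg adjustment over 8179 genes. The 14 genes of the rule were not tested. In all, 58 genes (0.709% of those tested) were higher in NK cells and 62 (0.758%) were lower at an adjusted p under 0.05, which makes 1.47% in either direction. At an unadjusted p under 0.05 there were 668. The test has 1 residual degree of freedom, and without the mouse block no gene was called in either direction, with 167 at an unadjusted p under 0.05.

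**Figure D2:**
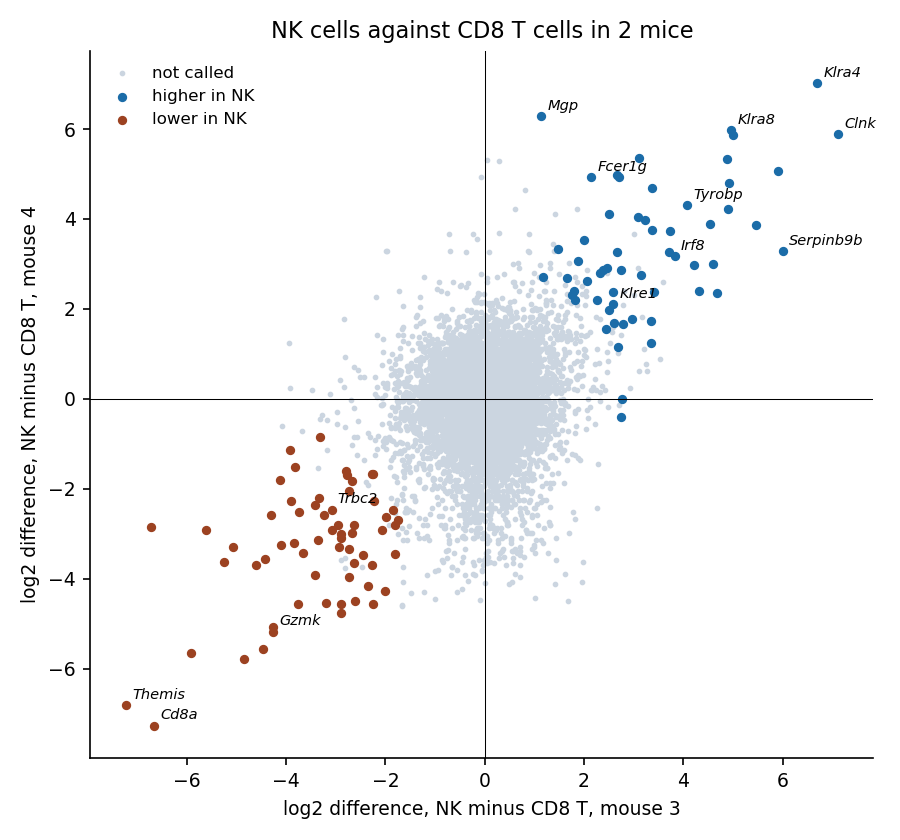
Difference between NK and CD8 T cells in mouse 3 (x axis) and mouse 4 (y axis), as log2 CPM with a prior count of 2, NK minus CD8 T; each point is 1 of 8179 tested genes. The 58 genes higher in NK cells (blue) include Klra4, Clnk and Tyrobp at the upper right, and the 62 lower ones (red-brown) include Themis and Cd8a at the lower left.

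Killer cell lectin receptors, 5 of them of the Ly49 family, were higher in NK cells. The gate asked for NK genes in NK cells but not in CD8 T cells. Higher NK receptor genes thus partly check the gate and are no independent finding. Among 16 tested genes for inhibitory and Ly49 receptors, 8 were higher in NK cells and 1 was lower, beside 1.47% called over all genes tested. The median log2 difference was 2.41 against -0.01 over all genes tested. Klra4, which encodes the activating receptor Ly49D, had 342 and 338 CPM in NK cells of mice 3 and 4, against 0 in CD8 T cells of both. Set against 3 counts in the CD8 T cells of each library, it was at least 83.6-fold higher in mouse 3 and at least 168-fold higher in mouse 4 (adjusted p = 4.7e-05). Klra8, which encodes Ly49H, a receptor for a cytomegalovirus protein, had 100.1 and 161 CPM in NK cells, against 0 in CD8 T cells, and was at least 24.5-fold and 80.0-fold higher in mice 3 and 4 (adjusted p = 0.00015). Klra7 (Ly49G), an inhibitory receptor, had 197 and 84.4 CPM in NK cells, against 0 in CD8 T cells, and was at least 48.1-fold and 41.9-fold higher (adjusted p = 0.00018). The NK and CD8 T values did not overlap for any of these 3 genes. With 2 mice this carries little weight, and the share of all tested genes without overlap is not given here. Klra9 (Ly49I) had 134 and 169 CPM in NK cells, against 1.36 and 1.34 CPM in CD8 T cells. Klra3 (Ly49C) had 144 and 130.5 CPM in NK cells, against 0 and 5.37 CPM in CD8 T cells, a log2 difference of 5.22 (SE 0.68, adjusted p = 0.00093). These genes are expressed by subsets of NK cells. A Klra4 UMI was seen in 39 of 87 NK cells in mouse 3 and 11 of 72 in mouse 4, and a Klra8 UMI in 24 and 10. In B cells a Klra4 UMI was seen in 0.431% of cells in mouse 3 and in none in mouse 4. DESeq2 did not call Klra4, Klra7 and Klra8, which had 0 counts in CD8 T cells, and called Klra3 and Klra9.

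Ly49 genes are near copies of each other, so reads of one can be counted for another. Of the 90-base words in their GENCODE M21 transcripts, 0% of those of Klra4, 2.83% of Klra3, 3.33% of Klra7, 6.34% of Klra9 and 16.1% of Klra8 also occurred in another of 13 Klra genes, so Klra8 is the least certain and Klra4 the most certain. The called Ly49 genes lie together on chromosome 6. Since they were higher together, 3 of their promoters are shown, from RefSeq on GRCm38.p6, each with 250 bases before and 50 after the annotated start on the minus strand. They are chr6:130067222-130067521 for Klra4, chr6:130129849-130130148 for Klra8 and chr6:130337577-130337876 for Klra3. The capitals mark AAGCAATTTCCTCTTTT, the longest run of bases that all 3 share.
Klra4: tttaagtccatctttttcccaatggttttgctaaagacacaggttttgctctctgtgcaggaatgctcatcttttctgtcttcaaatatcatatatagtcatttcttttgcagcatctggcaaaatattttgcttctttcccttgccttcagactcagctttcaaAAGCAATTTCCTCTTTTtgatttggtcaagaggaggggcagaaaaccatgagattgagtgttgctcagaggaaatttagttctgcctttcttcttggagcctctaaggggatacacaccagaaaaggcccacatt
Klra8: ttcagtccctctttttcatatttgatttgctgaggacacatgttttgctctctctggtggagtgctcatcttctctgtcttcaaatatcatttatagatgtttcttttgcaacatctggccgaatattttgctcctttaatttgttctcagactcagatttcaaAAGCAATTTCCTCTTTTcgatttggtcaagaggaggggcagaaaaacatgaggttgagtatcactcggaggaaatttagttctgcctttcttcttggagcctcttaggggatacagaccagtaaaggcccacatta
Klra3: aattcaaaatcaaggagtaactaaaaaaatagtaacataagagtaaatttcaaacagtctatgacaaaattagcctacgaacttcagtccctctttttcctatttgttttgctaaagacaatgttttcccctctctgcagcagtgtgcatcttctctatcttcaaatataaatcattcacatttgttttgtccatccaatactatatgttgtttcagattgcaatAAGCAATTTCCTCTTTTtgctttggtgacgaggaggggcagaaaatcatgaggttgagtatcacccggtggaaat
The 17-base run occurs in 4 of the 5 promoters looked up (Klra3, Klra4, Klra7, Klra8 and Klra9). It was taken from 3 of them, so its presence in those 3 was fixed in advance. Either strand of it occurs in 0.0244% of the 32851 promoters of the table. The match describes these letters and no binding was measured.

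Other lectin receptors followed. Klri2, a partner chain of the receptor Klre1, had 199 and 146 CPM in NK cells of mice 3 and 4, against 5.46 and 6.05 CPM in CD8 T cells (log2 difference 4.67, SE 0.50, adjusted p = 0.00027). Klre1 had 162 and 384 CPM in NK cells, against 24.6 and 71.2 CPM in CD8 T cells (2.41, SE 0.41, adjusted p = 0.0081). Klrc2 (NKG2C) had 140.2 and 230.3 CPM, against 49.1 and 16.8 CPM (2.42, SE 0.48, adjusted p = 0.022). Each of these was higher in NK cells within both mice. Klrb1b, an inhibitory receptor, and Klrb1a, both neighbours of Klrb1c on chromosome 6, were named by the size of their difference. Klrb1b had 147 and 292 CPM in NK cells, against 1.36 and 2.02 CPM in CD8 T cells. The rule chose cells with Klrb1c, so genes counted from shared Klrb1 sequence are not independent of it. Klrc1 (NKG2A), known from activated CD8 T cells too, had 180.3 and 361 CPM in NK cells, against 112 and 105 CPM in CD8 T cells, and was not called. Pdcd1 (PD-1), an inhibitory receptor of activated T cells, was the lower member, with 15.0 and 38.4 CPM in NK cells, against 363 and 198 CPM in CD8 T cells (-3.83, SE 0.57, adjusted p = 0.0024).

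The signalling adaptors Tyrobp and Fcer1g and the receptor gene Cd244a were higher in NK cells. The limit from the gate given for the Ly49 genes applies here too. Of 16 tested activating receptors and adaptors, 3 were higher and none was lower, beside 1.47% called over all genes tested. The median log2 difference was 0.64. Tyrobp (DAP12), which carries the signal of Ly49D and Ly49H, had 643 and 1566 CPM in NK cells of mice 3 and 4, against 35.5 and 62.5 CPM in CD8 T cells (4.28, SE 0.51, adjusted p = 0.00057). A Tyrobp UMI was seen in 86.2% and 77.8% of NK cells, against 17.2% and 11.4% of B cells. Fcer1g, the gamma chain used by NKp46 and CD16, had 2567 and 3017 CPM in NK cells, against 587 and 79.3 CPM in CD8 T cells (3.53, SE 0.75, adjusted p = 0.031). B cells showed 710.0 and 226 CPM of it. Cd244a (2B4), a receptor of the SLAM family, had 254 and 53.7 CPM in NK cells, against 25.9 and 4.70 CPM in CD8 T cells (3.27, SE 0.48, adjusted p = 0.0023). Clnk, an adaptor of immunoreceptor signalling in NK and mast cells, had 828 and 199.6 CPM in NK cells, against 2.73 and 0.672 CPM in CD8 T cells. Its adjusted p was 4.7e-05. With 2 and 1 CD8 T UMIs, the ratio was 303 in mouse 3 (95% counting interval 83.5 to 2512) and 297 in mouse 4 (48.8 to 12180.3). Klrk1 (NKG2D), which reads stress ligands, had 939.7 and 1328 CPM in NK cells, against 141 and 406 CPM in CD8 T cells. It was higher in NK cells within each mouse but was not called (2.08, SE 0.52, adjusted p = 0.077 in edgeR's quasi-likelihood test). Hcst (DAP10), its adaptor, had 96.8 and 921 CPM in NK cells, against 123 and 1231 CPM in CD8 T cells.

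Of 14 tested granule and death ligand genes, 1 was higher in NK cells and 1 was lower, beside 1.47% called over all genes tested, with a median log2 difference of -0.12. Gzmb, the granzyme that starts apoptosis in the target, had 10390.4 and 399 CPM in NK cells of mice 3 and 4, against 4886 and 156 CPM in CD8 T cells. It was not called, and in both classes mouse 3 was far above mouse 4. Gzmk, a granzyme of memory CD8 T cells, had 10.0 and 7.68 CPM in NK cells, against 257 and 302 CPM in CD8 T cells (-4.86, SE 0.56, adjusted p = 0.00044). Serpinb9b, of a family of granzyme inhibitors, had 210.3 and 30.7 CPM in NK cells, against 0 and 0.672 CPM in CD8 T cells (adjusted p = 0.00057). It was at least 51.4-fold higher in mouse 3. In mouse 4 the ratio rested on 4 NK UMIs, 3 of them in 1 cell, and 1 CD8 T UMI, and was 45.7 with a counting interval of 4.52 to 2251. Serpinb9, which protects killer cells from their own granzyme B, had 1703 and 269 CPM in NK cells, against 912 and 49.7 CPM in CD8 T cells. Fasl, the death ligand, had 352 and 107 CPM in NK cells, against 412 and 114 CPM in CD8 T cells. Neither was called.

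Among cytokines and chemokines, 1 of 10 tested genes was higher in NK cells and none was lower, beside 1.47% called over all genes tested. Xcl1, which draws cross-presenting dendritic cells, had 159 and 568 CPM in NK cells of mice 3 and 4, against 20.5 and 145 CPM in CD8 T cells (2.23, SE 0.46, adjusted p = 0.027). Of its 95 UMIs in the NK cells of mouse 3, 69 lay in 1 cell. In an alternative limited to NK cells with Cxcr6 and Il7r at 0, chosen after the data were seen, the log2 difference was 0.27 and Xcl1 was not called. Ifng, the main cytokine of NK cells, had 327 and 553 CPM in NK cells, against 300.2 and 385 CPM in CD8 T cells. Ccl4 had 1843 and 3869 CPM, against 935 and 2967 CPM, and Ccl5 9906 and 15759.6 CPM, against 5314 and 18767 CPM. None of these was called. Of 14 cytokine receptor genes none was called in this test, with a median log2 difference of 0.19. Il2rb, the chain through which interleukin 15 keeps NK cells alive, had 1178 and 284 CPM in NK cells, against 637 and 69.9 CPM in CD8 T cells. Il12rb2, a chain of the interleukin 12 receptor, had 379 and 161 CPM, against 213 and 41.0 CPM.

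Among 19 tested transcription factors, Irf8 was higher in NK cells and none was lower, beside 1.47% called over all genes tested. The median log2 difference was -0.03. Irf8, which acts in NK cell maturation and in myeloid and B cells, had 2419 and 154 CPM in NK cells of mice 3 and 4, against 171 and 12.1 CPM in CD8 T cells (3.66, SE 0.54, adjusted p = 0.0024). Irf8 was higher in NK cells within each mouse, while the NK value of mouse 4 lay below the CD8 T value of mouse 3. Eomes had 247 and 23.0 CPM in NK cells, against 35.5 and 20.8 CPM in CD8 T cells, and was not called. Tbx21 had 312 and 199.6 CPM, against 216 and 69.9 CPM. The same share is the background for 18 tested genes for maturation, homing and adhesion. Of these, Ccr7, the receptor that guides naive T cells into lymph nodes, was lower in NK cells. It had 10.0 and 0 CPM in NK cells, against 65.5 and 36.3 CPM in CD8 T cells (-2.96, SE 0.65, adjusted p = 0.037), and it lost its call when T cell receptor genes had to be 0, when each gene's highest cell was left out and with DESeq2. Itga2 (CD49b), a marker of mature NK cells, had 130.2 and 23.0 CPM in NK cells, against 10.9 and 10.1 CPM in CD8 T cells, and was not called.

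Of 14 tested T cell identity genes, 9 were lower in NK cells and none was higher, beside 1.47% called over all genes tested. The median log2 difference was -3.71. Because the gate set CD3 apart between the classes, these genes check the gate and are no independent finding. Themis, a T cell signalling protein, had 0 UMIs in the NK cells of both mice, against 504 and 238 CPM in CD8 T cells of mice 3 and 4, and was at least 101-fold lower in mouse 3 and at least 10.3-fold lower in mouse 4 (adjusted p = 0.00018). Bcl11b, the factor that commits cells to the T lineage, had 5.01 and 23.0 CPM in NK cells, against 319 and 255 CPM in CD8 T cells (-5.04, SE 0.63, adjusted p = 0.00078). Lat, the scaffold of T cell receptor signalling, had 33.4 and 23.0 CPM, against 282 and 204 CPM (-3.16, SE 0.47, adjusted p = 0.0026). Requiring T cell receptor genes at 0 left fewer cells and called 12 genes higher and 27 lower, and of 49 named genes 30 were still tested, of which 12 lost their call, all with the sign kept. Their log2 differences were then 2.84 for Irf8, 2.25 for Cd244a, 2.14 for Klrc2, 1.86 for Klre1, 1.80 for Xcl1, -1.90 for Pdcd1, -3.89 for Isg20, -2.98 for Umod and -0.98 for Ccr7. Cd5, Gm44174 and Plcg1, with at most 1 UMI over all NK cells of these mice, also lost theirs. Of 7 tested ILC1 and residency genes, Inpp4b, a lipid phosphatase, was lower, with 13.4 and 84.4 CPM in NK cells, against 236 and 202 CPM in CD8 T cells (-2.83, SE 0.58, adjusted p = 0.026), and the median log2 difference was -1.22. The neutrophil gene S100a8 and the tubule gene Umod were also lower in NK cells, and in CD8 T cells of mouse 3 single cells held 309 of 343 S100a8 UMIs and 86 of 107 Umod UMIs. Trbc1 was not called and had 357 and 461 CPM in NK cells, against 293 and 676 CPM in CD8 T cells.

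**Figure D3:**
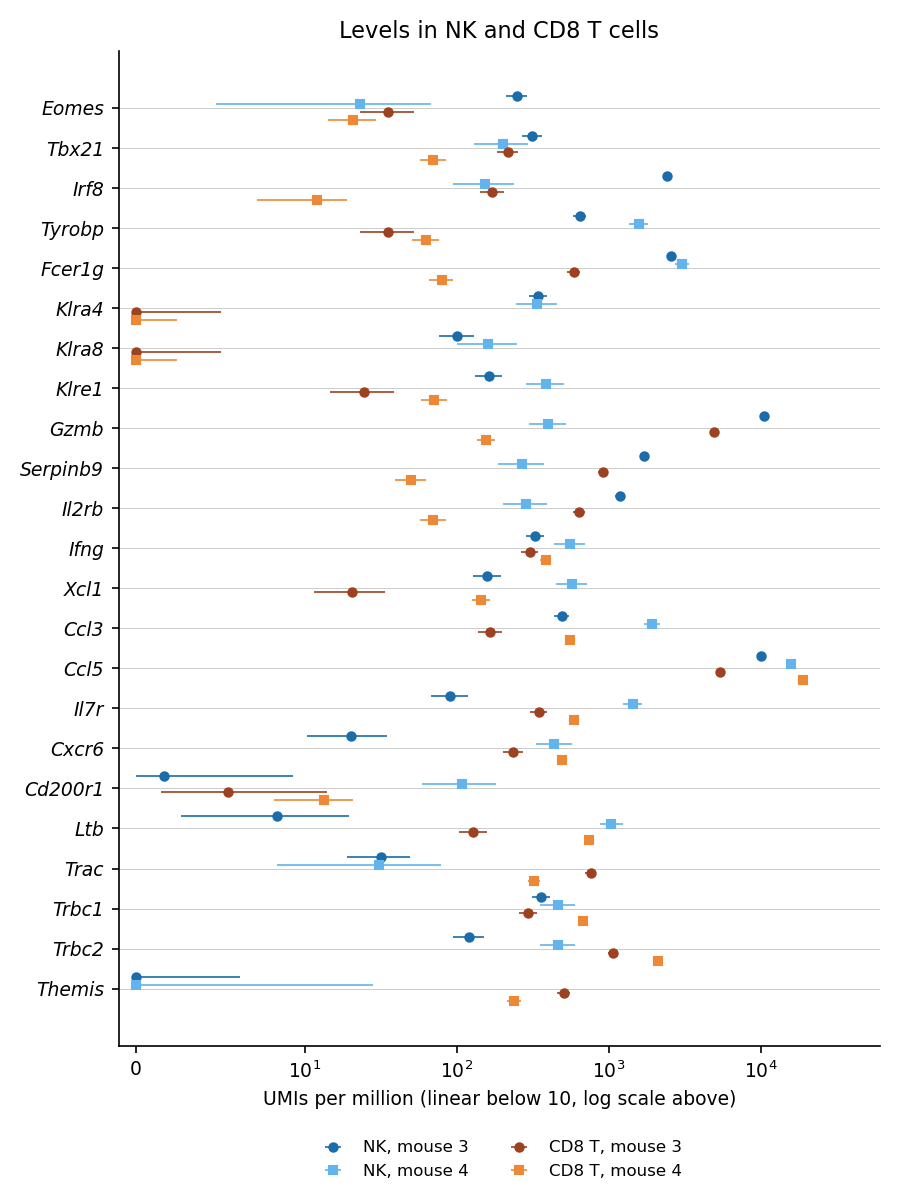
Levels of 23 genes in NK cells (blue) and CD8 T cells (brown and orange) of mice 3 and 4, in CPM on an axis that is linear below 10 and logarithmic above; bars are exact 95% Poisson intervals. Klra4 and Klra8 lie at 0 in CD8 T cells and Themis at 0 in NK cells, while Gzmb and Irf8 lie higher in mouse 3 than in mouse 4 in both classes.

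Genes of vascular smooth muscle and of the pericytes around small vessels also appeared on the higher side. Acta2, Ccn2, Mgp, Myh11 and Ren1 were called higher in NK cells. They are 5 of 10 genes of a list added after the data were seen, beside 0.709% called higher over all genes tested. Summed over that list, NK cells had 1309 and 1812 CPM in mice 3 and 4, against 576 and 161 CPM in CD8 T cells. These sums rested on single cells. Of 268 Acta2 UMIs in the NK cells of mouse 3, 193 lay in 1 cell, and of 68 Mgp UMIs in the NK cells of mouse 4, 67 lay in 1 cell. Leaving out cells with UMIs of at least 2 of Acta2, Tagln, Myh11, Ren1 and Mgp left 80 of 87 NK cells in mouse 3 and 71 of 72 in mouse 4. With those cells out, 59 genes were higher and 71 lower, of which 49 and 59 were among the calls above. With the highest doublet scores removed, the Acta2 difference turned to -2.21.

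NK cells were also set against T cells with NK receptors. These were barcodes that met the same NK gene criterion but carried at least 2 CD3 genes, with Cd4, Cd8b1, Csf1r, Cd79a and Pecam1 at 0, and they numbered 14 in mouse 3 and 55 in mouse 4. Of 2866 genes tested in the same way, 8 (0.279%) were higher in NK cells and 10 (0.349%) were lower, 0.628% in all, with 210 at an unadjusted p under 0.05. This T cell class had fewer cells and fewer tested genes than the CD8 T cells and met the NK gene criterion itself. The small number of calls therefore does not measure how alike the classes are. Tyrobp had 643 and 1566 CPM in NK cells of mice 3 and 4, against 129.6 and 153 CPM in these T cells (2.90, SE 0.36, adjusted p = 0.013). Klra4 had 342 and 338 CPM in NK cells, against 0 and 24.1 CPM, at least 9.68-fold higher in mouse 3 and with a ratio of 14.0 in mouse 4 (counting interval 4.49 to 70.5; adjusted p = 0.018). Klri2 had 199 and 146 CPM, against 0 and 8.04 CPM, at least 5.62-fold higher in mouse 3 and with a ratio of 18.1 in mouse 4 (counting interval 2.88 to 753; adjusted p = 0.03). Irf8 had 2419 and 154 CPM in NK cells, against 342 and 40.2 CPM (2.62, SE 0.39, adjusted p = 0.021). The chemokine gene Ccl3, whose product draws macrophages and other leukocytes, had 487 and 1919 CPM in NK cells, against 35.3 and 265 CPM (3.09, SE 0.37, adjusted p = 0.013). All 5 genes were higher in NK cells within each mouse. The Irf8 value of NK cells in mouse 4 lay below that of these T cells in mouse 3. Against CD8 T cells, which had 165 and 557 CPM of it, Ccl3 was not called. The 2 comparisons share the NK cells and are not independent of each other.

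Lower in NK cells than in T cells with NK receptors were the T cell genes Trac, Trbc2, Trgc2 and Bcl11b. These were 4 of 12 tested, beside 0.349% called lower over all genes tested. The gate set CD3 apart between these classes too, so these 4 genes check the gate and are no independent finding. Trgc2, the constant region of a gamma chain, had 1.67 and 0 CPM in NK cells of mice 3 and 4, against 177 and 80.4 CPM. Also lower were Gramd2b, with 96.8 and 23.0 CPM in NK cells, against 872 and 523 CPM (-3.49, SE 0.41, adjusted p = 0.013), and Jaml, an adhesion molecule gene, with 71.8 and 15.4 CPM, against 636 and 80.4 CPM. The interferon-induced gene Ifi27l2a had 43.4 and 38.4 CPM in NK cells, against 401 and 370.0 CPM. Gzmb had 10390.4 and 399 CPM in NK cells, against 7056 and 153 CPM, and no tested granule gene was called. Of 9 tested inhibitory and Ly49 receptor genes, 2 were higher in NK cells, beside 0.279% over all genes tested. The Ly49 genes did not all separate the classes. Klra7 had 197 and 84.4 CPM in NK cells, against 236 and 8.04 CPM, and Klra9 had 134 and 169 CPM, against 141 and 96.5 CPM. The other higher genes were Tagln, Nupr1 and Igfbp7, of which 1 NK cell of mouse 4 held 126 of 127 Nupr1 UMIs and all 26 Tagln UMIs of that mouse's NK cells lay in 1 cell. Without the cells that held smooth muscle genes no gene was called in this comparison in either direction, with 161 at an unadjusted p under 0.05. Without the mouse block none was called either, with 31 at an unadjusted p under 0.05.

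The NK cells of mouse 3 and those of mouse 4 differed widely. With 1 library each, these are values of 2 mice without a test. Beside Eomes, the mouse 3 cells were higher in Gzmb, Irf8, Serpinb9, Il2rb and Itga2. The mouse 4 cells were higher in genes known from ILC1 and from resting lymphocytes. Il7r, the interleukin 7 receptor, had 90.1 CPM (67.7 to 118) in NK cells of mouse 3 and 1435 CPM (1237 to 1657) in those of mouse 4, with a UMI in 12.6% and 65.3% of cells. In CD8 T cells Il7r had 344 and 587 CPM, and in B cells 490.3 and 21.8 CPM. Cxcr6, a chemokine receptor of tissue-resident lymphocytes, had 20.03 CPM in NK cells of mouse 3 and 438 CPM in those of mouse 4, while CD8 T cells had 233 and 491 CPM. At 1000 UMIs per cell, Il7r was seen in 7.0% and 52.9% of NK cells of mice 3 and 4 and Cxcr6 in 2.3% and 29.4%. Ltb, a cytokine of lymphoid tissue, had 8.35 and 1036 CPM in NK cells and 128 and 738 CPM in CD8 T cells. Cd7 had 10.0 and 484 CPM in NK cells, and Cd200r1, an inhibitory receptor of ILC1, had 1.67 and 107 CPM. CD8 T cells shared the direction of many of these contrasts, but not always their size. Gzmb, Irf8, Serpinb9, Il2rb, Eomes, Il7r, Cxcr6, Ltb, Cd7 and Cd200r1 all differed in the same direction in CD8 T cells. By ratio, Il7r, Cxcr6, Ltb and Eomes differed less in CD8 T cells than in NK cells, while Serpinb9 and Il2rb differed more. Serpinb9 stood at 912 and 49.7 CPM and Il2rb at 637 and 69.9 CPM in CD8 T cells of mice 3 and 4. In B cells Il7r differed in the opposite direction. The part of the libraries in these differences was not tested.

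Within mouse 4, the NK cells fell into cells with Il7r and cells without it. This split was chosen after the data were seen and is given as a description without a test. Of 72 NK cells, 47 had an Il7r UMI, with a median depth of 1615 UMIs, and 25 had none, with 1529 UMIs. Gzma had a UMI in 1 of the 47 cells with Il7r and in 22 of the 25 without. Gzmb had 11.05 CPM (0.280 to 61.6) in cells with Il7r and 1283 CPM (955 to 1687) in cells without. Klra4 and Klra8 had 0 UMIs in the cells with Il7r, against 44 and 21 UMIs in the cells without, that is 1107 and 528 CPM. All Klra4 and Klra8 transcripts of the NK cells of mouse 4 thus lay in cells without Il7r. Tyrobp had 851 CPM in cells with Il7r and 3194 CPM in cells without, Klre1 had 199 and 805 CPM, and Ccl5, a chemokine stored by killer cells, had 8076 and 33253 CPM. The groups share the gate genes as a criterion, so a cell without Gzma had to reach 3 NK genes through the others.

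Of 9 genes of the ILC1 and residency list, 7 stood higher in the cells with Il7r of mouse 4, Inpp4b stood lower and Itgae had 0 UMIs. Of the list genes given in CPM here, only Tmem176b and Cd69 had intervals that did not overlap. Cxcr6, also on the list, is given below by cells with a UMI. Tmem176b had 442 CPM (316 to 602) in cells with Il7r and 25.2 CPM (0.637 to 140.1) in cells without. Cd69, a residency and activation marker, had 519 and 126 CPM, Tmem176a had 221 and 75.5 CPM, and Cd200r1 had 144 and 25.2 CPM. Itga1 had 66.3 and 25.2 CPM, Ckb had 122 and 50.3 CPM, and Inpp4b had 66.3 and 126 CPM. Of genes on other lists, Ltb had 1370.0 and 277 CPM and Cd7 had 641 and 126 CPM. Emb, an adhesion gene, had 1116 and 201 CPM, and Xcl1 had 740.2 and 176 CPM. Cxcr6 had a UMI in 30 of 47 cells with Il7r and in 4 of 25 without. Eomes had 0 UMIs in the cells with Il7r and 3 UMIs, in 3 cells, in those without. T cell transcripts did not follow the split closely. Trac had a UMI in 3 of 47 cells with Il7r and in 1 of 25 without, and Trbc2 in 21 and 8. Ifng had 652 CPM in cells with Il7r and 327 CPM in cells without, with intervals that overlapped.

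**Figure D4:**
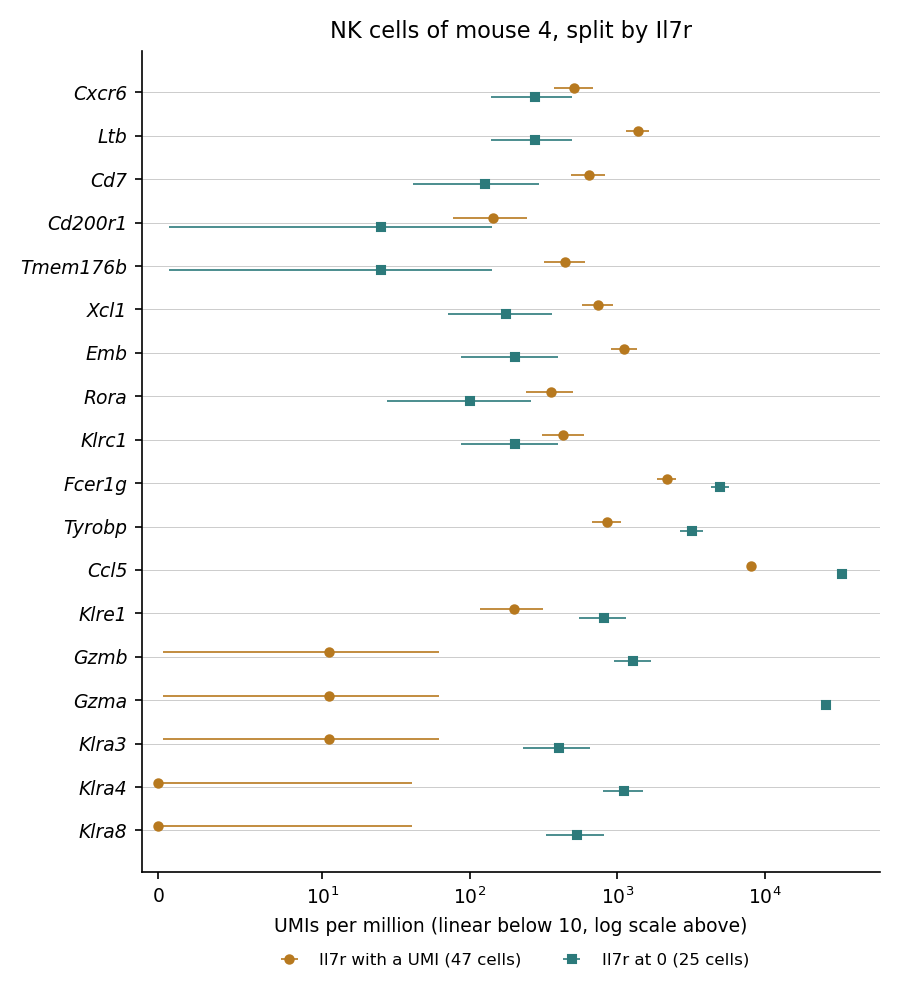
Levels of 18 genes in the NK cells of mouse 4 with an Il7r UMI (47 cells, brown circles) and without one (25 cells, green squares), in CPM on an axis that is linear below 10 and logarithmic above; bars are exact 95% Poisson intervals for counting error. Gzma, Gzmb and the Klra genes lie at or near 0 in cells with Il7r, and Ltb, Emb and Tmem176b lie above the cells without.

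In mouse 3 the same split gave 11 cells with Il7r and 76 without, and the granule genes did not separate them as they did in mouse 4. Gzma had a UMI in 9 of 11 cells with Il7r and in 76 of 76 without, and stood at 2998 and 11619 CPM. Gzmb had 2883 and 11384 CPM. Klra4 had a UMI in 1 of 11 and 38 of 76 cells, and Cxcr6 in 4 of 11 and 1 of 76. Xcl1 had 1099 CPM in cells with Il7r and 34.0 CPM in cells without. The directions of Gzma, Gzmb, Klra4, Cxcr6 and Xcl1 were those of mouse 4, with Gzma and Gzmb present in most cells on both sides.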

How the data were processed

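Single-cell libraries of 4 CIAKI mouse kidneys were used as raw UMI counts per gene and barcode. The authors deposited these count matrices as written by Cell Ranger 9.0.1, per the file headers, and the submitters' processing notes also name Seurat 4.1.1. Genome build and annotation: not given in the sources used here. In all, the matrices held 48213 barcodes and 57132 genes, and every barcode had at least 500 UMIs. Barcodes with at least 300 genes and under 50% mitochondrial UMIs were kept, 40939 in all. Total counts per library were 36831995 to 105436725 UMIs, and values per class are UMIs per 1000000 UMIs of the class (CPM) with exact Poisson intervals, or shares of cells with exact Clopper-Pearson intervals at the 95% level. In CPM and fold values, a count of 0 is limited by 3 counts.

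Counts were summed per mouse and class where both classes had at least 10 cells. They were tested with edgeR 4.0.16 (TMM scaling, its low-count filter, quasi-likelihood test, Benjamini-Hochberg adjusted p under 0.05) in R 4.3.3. The mouse was a block, since both classes came from the same libraries. The 14 genes of the rule were left out of the tests. The test was tried on simulated counts first. DESeq2 1.42.0, other size factors, thinning to 1000 UMIs, other limits on cells, and removal of the highest Scrublet scores (scanpy 1.11.5, 0.8% per 1000 barcodes) were alternatives. Alternatives on Cxcr6 and Il7r, on smooth muscle genes and on each gene's highest cell were chosen after seeing the data. Named genes are those of the gene lists, plus for each comparison the 10 largest and 10 smallest log2 differences among called genes on the same side in both mice. The members and lists were chosen with earlier results of these data known. The 4 libraries are labelled as separate mice, and the p-values come from mice 3 and 4 alone. Because the mouse was a block, the difference in level between these mice does not enter the p-values as spread.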

Additional observations from a re-analysis of the deposited data

How the results depend on the processing

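Against CD8 T cells, 58 genes were higher and 62 lower in NK cells. With a 20% mitochondrial limit 92 were higher, and with T cell receptor genes at 0 there were 12 higher and 27 lower. Counts thinned to 1000 UMIs per cell gave 44 higher and 35 lower, of which 19 and 26 were among the calls above. DESeq2 called 33 and 35, of which 32 and 33 were among the calls above, and 20 of 49 named genes lost their call. Its size factors in edgeR gave 123 and 134, and no low-count filter gave 101 and 139. Removal of doublet scores gave 87 and 88. With Cxcr6 and Il7r at 0, chosen after seeing the data, 115 were lower.

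Against T cells with NK receptors, 8 genes were higher and 10 lower. The 20% limit gave 19 and 25, a minimum of 1000 UMIs 29 and 33, DESeq2's size factors 19 and 24, and no low-count filter 52 and 34. T cell receptor genes at 0 gave 5 higher, removal of doublet scores 19 lower and DESeq2 6 lower. Thinned counts gave 8 higher and 8 lower, of which 3 and 3 were among the main calls. Of the alternatives chosen after seeing the data, Cxcr6 and Il7r at 0 gave 23 and 44, each gene's highest cell left out 19 and 21, and smooth muscle genes absent 0 and 0.

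Without the replicate block (the mouse), 0 genes were called in either direction in both comparisons. The Acta2 difference from CD8 T cells reversed to -2.21 when doublet scores were removed. The causes were not tested.

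Leaving out 1 mouse moved the mean of the NK share of kept barcodes between 0.203 and 0.428%, T cell receptor genes at 0 put it at 0.0559%, and Cxcr6 and Il7r at 0 put it at 0.192%. Leaving out mouse 3 or mouse 4 left no residual degrees of freedom, so the gene comparisons then have no test. A minimum of 20 cells per class could not be fitted against T cells with NK receptors. At the depth of mouse 4, a gene with 0 UMIs in its NK cells may stand at up to 23.0 CPM.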

Other observations

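Of 14 tested interferon-induced genes, none was higher in NK cells than in CD8 T cells. Ifit3 and Isg20 were lower in edgeR's quasi-likelihood test, beside 1.47% of all genes called in either direction. The median log2 difference of the list was -0.95. Ifit3 had 135 and 0 CPM in NK cells of mice 3 and 4, against 669 and 48.4 CPM in CD8 T cells (-2.54, SE 0.55, adjusted p = 0.036). Summed over the list, NK cells had 2789 and 537 CPM, against 5875 and 832 CPM in CD8 T cells, and B cells had 4574 and 354 CPM. The difference between the mice was thus present in all 3 classes, and its source was not tested.

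Immediate early genes, which are induced within minutes of a stimulus, were high in the NK cells of mouse 4. Summed over 14 genes they stood at 5512 CPM in NK cells of mouse 3 and 18799 CPM in those of mouse 4, against 5771 and 9695 CPM in CD8 T cells. Fos had 249 and 4598 CPM in NK cells, against 555 and 2356 CPM in CD8 T cells, and Jun had 220.3 and 3301 CPM, against 248 and 1214 CPM. None of the 14 was called. B cells had 5542 and 8486 CPM of the list, so mouse 4 was higher in all 3 classes, and the part of the library was not tested. Proliferation transcripts were rare in NK cells. Mki67 had a UMI in 4 of 87 NK cells of mouse 3 and 0 of 72 of mouse 4, and the summed proliferation list stood at 234 and 184 CPM in NK cells, against 216 and 541 CPM in CD8 T cells.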
